A study of Mus musculus with 26 samples.

Results

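Accessible chromatin was mapped by ATAC-seq, which reads where a transposase can enter the DNA, and the regions described here had peaks in epiblast stem cells (EpiSCs) grown in AFX medium but not in formative stem (FS) or embryonic stem (ES) cells. They were chosen by peak presence. The 15 deposited peak lists of FS1, FS2, EpiSC_AFX1, EpiSC_AFX2 and ES were merged into 63362 union regions. A region was kept when at least 2 of the 3 lists of each AFX line overlapped it and none of the 6 FS and 3 ES lists did. This left 340 regions, called AFX-only regions below, of the 17188 that both AFX lines held by the same 2-of-3 criterion. Absence here means that no peak was listed, which is not the same as closed chromatin. All 340 were read throughout, and no filter on low values was applied.

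EpiSCs represent primed pluripotency, the state of the epiblast shortly before and during gastrulation, and are maintained by activin/Nodal and FGF signals. ES cells in 2iL represent the earlier naive state, and formative pluripotency is placed between them. In the first set, all with 3 libraries each, FS1 (passage 21) and FS2 (passage 29) were grown in A3XR, EpiSC_AFX1 (passage 14) and EpiSC_AFX2 (passage 16) in AFX, EpiSC_AF (passage 22) in AF, and ES (passage 16) in 2iL. As background from the published account of these cultures, AF supplies activin A and FGF2, AFX adds a tankyrase inhibitor that restrains Wnt signalling, and A3XR combines a low activin dose with the same inhibitor and a block of retinoic acid receptors. The Rd2 set held 2 EpiSC libraries in AFX (Rd2_AFX, passage 16), 4 libraries of epiblast-like cells (Rd2_EpiLC), made from ES cells in AF with KSR over 2 days and sorted for low GFP, and 2 of ES cells in 2iL (Rd2_ES, passage 33). Each library started from 50000 cells. The labels give no strain. For genotype they give only the WT in the Rd2 titles and the source name Rd2GFP of the Rd2_ES libraries. There is no statement that numbered libraries came from separate cultures, so spreads between libraries may be technical.

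The lists differ in length, and this bears on every value below. FS1 lists held 23883 to 31263 peaks, FS2 lists 11796 to 14147, AFX1 lists 17701 to 27485, AFX2 lists 25641 to 29575, AF lists 15505 to 24824 and ES lists 8044 to 10961. Read depth is unknown, since the lists give no read counts. In the AFX lists, 5 to 7 of the 9 primed EpiSC markers with a known start site had a peak within 1 kb of it, against 0 to 2 in ES lists. The number was 7 to 9 in AF lists but only 2 in each Rd2_AFX list. Fgf5, Nodal, Foxa2 and Dnmt3b were among those marked in 6 of 6 AFX lists, while Otx2 and Cer1, both primed markers, were marked in 0 of 6. Of 6 naive markers, 4 were marked in each AFX list and 2 to 3 in ES lists, and Zfp42 was marked in 0 of 6 AFX and 3 of 3 ES lists. Esrrb and Tfcp2l1 went the other way, in 6 of 6 AFX and 0 of 3 ES lists. Klf2 and Klf4 were marked in 6 of 6 AFX lists and in 3 and 2 of the 3 ES lists, and Nr5a2 was marked in none. Feeder fibroblast markers were marked at 1 to 3 of 5 start sites in AFX lists, at 0 to 1 in AF lists and at 0 in ES and Rd2_AFX lists. Col1a2, a fibrillar collagen gene, had a peak in 6 of 6 AFX lists, Twist1 in 4 and Twist2 in 2, whereas Col3a1 and Prrx1 had none. Neural markers were marked at 3 to 5 of 6 start sites in AFX lists, at 3 to 4 in AF lists, at 1 in each Rd2_AFX list and at 0 to 1 in ES. Definitive endoderm markers were marked at 2 to 3 of 4 start sites in AFX and AF lists, at 1 to 2 in ES and at 1 in Rd2_AFX. For primitive endoderm it was 0 to 1 of 2 in AFX, AF and Rd2_AFX lists and 0 in ES. The part of other cell types in the AFX-only regions was not tested.

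Sequences could be shown for regions that reach a promoter. The RefSeq promoter windows (GRCm38.p6, 250 bases before to 50 after the start) cover 17492 of the 21900 protein-coding genes, and AFX-only regions overlapped 34 of them. The 250 bases before the start of 6 of these genes follow, 5′ to 3′ on the gene's strand, with bases inside the AFX-only region in capitals. Cnih2 (a subunit accompanying AMPA receptors), Kctd8 (an auxiliary subunit of GABA-B receptors) and Epha3 (an ephrin receptor) come from the highest-ranked regions at start sites. Tfap2a (a factor of surface ectoderm and neural crest), Fgf10 (a ligand in limb and lung budding) and Ptf1a (a factor of pancreas and neural progenitors) were picked after their values were seen, because the regions cover most or all of the bases before the start of a developmental gene.
Cnih2, chr19:5098522-5098771, minus strand: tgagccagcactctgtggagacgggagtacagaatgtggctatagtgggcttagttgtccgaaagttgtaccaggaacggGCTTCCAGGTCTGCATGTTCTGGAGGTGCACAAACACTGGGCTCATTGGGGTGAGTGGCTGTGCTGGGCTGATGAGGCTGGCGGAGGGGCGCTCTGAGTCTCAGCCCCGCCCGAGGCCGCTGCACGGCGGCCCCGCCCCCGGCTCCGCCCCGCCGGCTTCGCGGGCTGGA
Kctd8, chr5:69341710-69341959, minus strand: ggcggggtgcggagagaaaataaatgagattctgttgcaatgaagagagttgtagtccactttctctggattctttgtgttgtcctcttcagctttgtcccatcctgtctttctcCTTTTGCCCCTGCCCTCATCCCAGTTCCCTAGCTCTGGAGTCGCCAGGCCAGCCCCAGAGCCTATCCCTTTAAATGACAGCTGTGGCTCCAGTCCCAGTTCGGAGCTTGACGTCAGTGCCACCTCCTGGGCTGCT
Epha3, chr16:63864176-63864425, minus strand: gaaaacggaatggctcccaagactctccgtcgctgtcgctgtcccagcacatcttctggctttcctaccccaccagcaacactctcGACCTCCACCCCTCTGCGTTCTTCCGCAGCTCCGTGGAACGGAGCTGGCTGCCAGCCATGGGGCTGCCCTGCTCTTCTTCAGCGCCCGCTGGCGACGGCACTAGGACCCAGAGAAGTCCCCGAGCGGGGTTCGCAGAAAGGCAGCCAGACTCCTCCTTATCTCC
Tfap2a, chr13:40733796-40734045, minus strand: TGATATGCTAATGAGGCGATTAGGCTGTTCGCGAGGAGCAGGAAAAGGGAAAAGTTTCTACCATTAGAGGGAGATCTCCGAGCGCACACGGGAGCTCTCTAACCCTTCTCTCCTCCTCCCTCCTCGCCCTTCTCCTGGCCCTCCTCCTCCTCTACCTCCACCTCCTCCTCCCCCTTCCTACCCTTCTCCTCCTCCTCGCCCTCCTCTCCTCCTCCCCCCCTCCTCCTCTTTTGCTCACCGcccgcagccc
Fgf10, chr13:118714449-118714698, plus strand: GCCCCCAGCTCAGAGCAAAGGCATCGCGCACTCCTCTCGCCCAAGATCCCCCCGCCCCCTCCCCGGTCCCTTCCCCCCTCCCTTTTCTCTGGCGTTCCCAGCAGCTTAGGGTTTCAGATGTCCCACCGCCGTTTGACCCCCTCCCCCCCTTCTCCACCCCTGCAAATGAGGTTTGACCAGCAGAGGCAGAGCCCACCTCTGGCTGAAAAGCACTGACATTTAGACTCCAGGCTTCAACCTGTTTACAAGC
Ptf1a, chr2:19445413-19445662, plus strand: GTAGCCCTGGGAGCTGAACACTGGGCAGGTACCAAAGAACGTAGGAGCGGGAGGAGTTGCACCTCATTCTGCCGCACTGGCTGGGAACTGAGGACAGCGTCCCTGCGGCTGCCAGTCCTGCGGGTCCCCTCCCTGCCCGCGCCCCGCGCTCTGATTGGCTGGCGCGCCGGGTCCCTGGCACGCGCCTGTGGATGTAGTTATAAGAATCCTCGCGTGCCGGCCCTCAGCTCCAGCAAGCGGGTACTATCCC
The region reached 170 of the 250 bases at Cnih2, 135 at Kctd8, 164 at Epha3, 240 at Tfap2a and all 250 at Fgf10 and Ptf1a. The CpG content differed widely within the 34 windows of 300 bp. The observed over expected CpG ratio was 0.759 at Cnih2, 0.677 at Ptf1a, 0.394 at Fgf10 and 0.0862 at Gng3, a G protein gamma subunit gene. Its median was 0.633 over the 34, against 0.720 over the 1329 windows reached by the shared regions defined below and 0.576 over all 17492.

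Of 20 short motifs searched on both strands in these windows, the KLF/SP motif CCNCNCCC was the most frequent, in 67.6% of the 34, against 75.5% of windows at shared regions and 55.8% of all windows. The AP-2 motif GCCNNNGGC was in 35.3%, against 25.3% and 19.6%. The AGNGGGC core of the CTCF motif was in 38.2%, against 40.3% and 29.6%, and CCAAT in 23.5%, against 35.4% and 39.0%. TGANTCA (AP-1), CTTTGAT (TCF/LEF), ATGCAAAT (octamer) and TAATCC (OTX) were in 0 of the 34, and each was in 1.71% to 7.08% of all windows. Motifs may overlap each other, and AP-2 and KLF/SP letters are both rich in G and C. In the printed bases, the forkhead motif TGTTTAC was found before Fgf10, beside grainyhead (AACNNGTT), CTCF core and KLF/SP matches. The AP-2 motif was found before Cnih2, beside CTCF core, CCAAT and KLF/SP matches. The forkhead motif was in 1 of the 34 windows (2.94%), against 1.88% of windows at shared regions and 2.94% of all windows. Matches describe letters and not occupied sites, and 34 windows give coarse shares.

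The AFX-only regions were weak members of the AFX lists. Each peak was given its percentile rank by the authors' −log10 p within its own list, where 100 is the strongest, and a region's mean rank was taken over the AFX lists that had a peak there. The median mean rank was 33.8, with a range from 5.44 to 80.8. In the separate lists, the median rank was 22.9, 26.6 and 33.7 in AFX1 libraries 1 to 3, and 32.4, 39.7 and 38.9 in AFX2 libraries 1 to 3. All 6 values lie below the middle of their list. The authors' fold enrichment had a median of 3.90, 3.87 and 3.93 in AFX1 and 4.13, 4.44 and 3.995 in AFX2 at these regions, against 4.44, 4.31 and 4.33 and 4.57, 4.67 and 4.24 over all peaks of the same lists. Just 44 regions (12.9%) had a mean rank of 50 or more, and 1 reached 75. These values belong to the lists that chose the regions and are given as a description.

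As a yardstick, 2960 shared regions were taken, which both AFX lines and both FS lines held in at least 2 of 3 lists and no ES list had. Their median mean rank was 60.1, and 69.9% had a rank of 50 or more. AFX-only regions were also narrower, with a median width of 423 bp against 612 bp for shared regions and 691 bp for all other regions held by both AFX lines. These are widths of merged regions, and shared regions by definition merge FS peaks as well. The choice of regions can thus set part of this gap, so the widths are not on equal footing. Of the 340, 143 were in 4 AFX lists, 159 in 5 and 38 in all 6, while 75.1% of shared regions were in all 6. Single AFX lists overlapped 185, 253 and 312 of the 340 in AFX1 and 260, 315 and 270 in AFX2. Single libraries weighed on the selection: without FS1 library 3 it would hold 642 regions. Without AFX1 library 3 it would hold 97, but both remaining AFX1 lists were then required, which is a stricter criterion. The nearest FS or ES peak lay at a median distance of 11306 bp, within 500 bp for 7 regions and within 5 kb for 98.

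**Figure D1:**
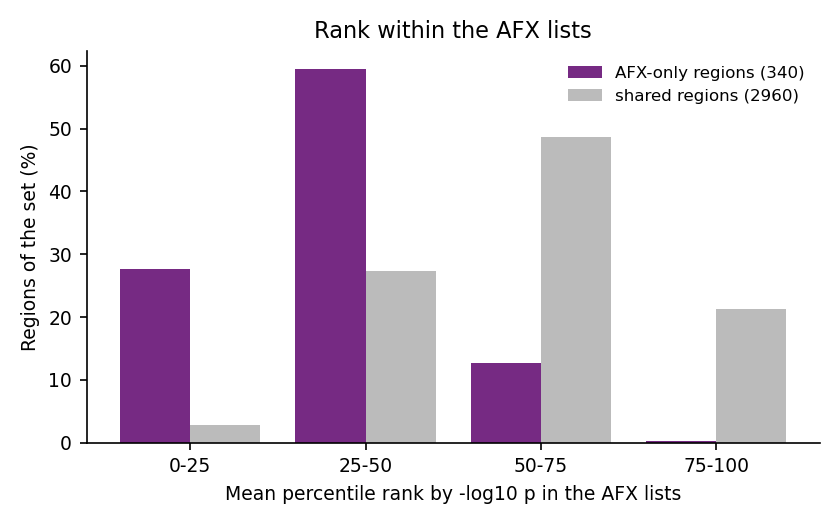
Percent of each set (vertical axis) in 4 bins of mean percentile rank by −log10 p in the AFX lists (horizontal axis), for the 340 AFX-only regions (purple) and the 2960 shared regions (grey). The bin from 25 to 50 holds 202 AFX-only regions, and the bin above 75 holds 1.

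Regions just outside the selection had like ranks. There were 623 that missed it by 1 FS or ES list, 517 of them through a single FS1 list, 70 through FS2 and 36 through ES, with a median rank of 35.1. A further 787 missed it by 1 AFX list, with a median rank of 30.2. The 143 regions at the limit, in 2 of 3 lists of both lines, had a median of 27.3. Among the strongest near misses were a region at chr8:102863035-102863442, 77.5 kb from Cdh11 (a mesenchymal cadherin), with rank 72.2 and a peak in 6 AFX lists and in 1 FS or ES list, and a region at chr12:80441343-80441544, 4.74 kb from Dcaf5, with rank 73.4 and a peak in 3 AFX lists. The others were within the spans of Nectin2 (a cell adhesion receptor), at chr7:19747919-19748205 with rank 72.0, and Sphkap, at chr1:83408004-83408412 with rank 71.8.

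Lists that took no part in the selection were read next, first in EpiSC_AF, the EpiSCs without the tankyrase inhibitor. Its 3 lists overlapped 66, 124 and 156 of the 340 regions, or 19.4%, 36.5% and 45.9% (33.9% ± 13.4, SD, n = 3). The shortest list, of library 1, was lowest and the longest, of library 3, was highest. The same lists overlapped 73.5%, 88.3% and 90.9% of the shared regions, so each of the 3 overlapped a smaller share of AFX-only regions. At least 2 of the 3 AF lists held 98 AFX-only regions (28.8%), against 88.7% of shared regions and a background of 86% of the other regions held by both AFX lines. No AF list had a peak at 127 regions, 1 had at 115, 2 at 63 and 3 at 35. AFX-only regions were chosen for having no peak in FS or ES lists, and shared regions for having FS peaks. That choice can by itself lower the share of AFX-only regions found in further lists, and its part was not tested. No test was made across regions, which are not replicates of a condition.

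The lower hold in AF was present in 3 of 4 bins of AFX rank. Of the regions ranked 0 to 25, 14.9% of 94 AFX-only and 73.5% of 83 shared regions were held in at least 2 AF lists. From 25 to 50 the values were 30.2% of 202 and 77.6% of 809, and from 50 to 75 they were 51.2% of 43 and 91.2% of 1439. Above 75 there was 1 AFX-only region, which was held, and 99.2% of 629 shared regions were. Hold also moved with the number of AFX lists, from 16.8% of regions in 4 lists to 34.0% in 5 and 52.6% in 6. Across regions held by both AFX lines without ES, hold in AF rose step by step with the number of FS lists that had a peak. It was 28.8% with 0 FS lists, 40.4% with 1, 51.8% with 2, 69.2% with 3, 81.3% with 4, 87.9% with 5 and 92.8% with 6. Among regions of rank under 50 it went from 25.3% to 81.2%.

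**Figure D2:**
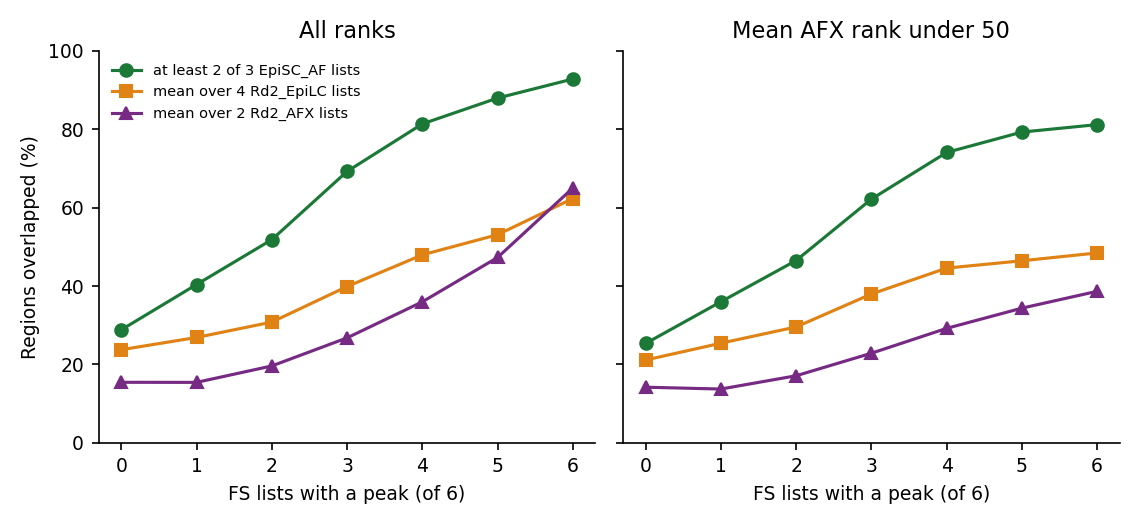
Percent of regions overlapped (vertical axis) against the number of the 6 FS lists with a peak (horizontal axis), for regions held by both AFX lines and no ES list, at all ranks (left) and at mean AFX rank under 50 (right). Hold in at least 2 of 3 EpiSC_AF lists goes from 28.8% with 0 FS lists, the AFX-only regions, to 92.8% with 6.

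The Rd2 set offered EpiSCs in the same AFX medium, but its peaks were processed apart from the first set, with a shortest peak of 110 bp and not 150 bp. Each Rd2_AFX list had a peak at only 2 of the 9 primed markers. The Rd2_AFX lists overlapped 56 and 49 of the 340 regions, or 16.5% and 14.4%, against 55.3% and 52.2% of shared regions. At least 1 Rd2_AFX list had a peak at 90 regions (26.5%), below the background of 66.1%, and both did at 15. The Rd2_EpiLC lists, from cells not yet established as EpiSCs, overlapped 39, 129, 20 and 135 regions for libraries 1.1, 1.2, 2.1 and 2.2, or 11.5%, 37.9%, 5.88% and 39.7%. Libraries 1.2 and 2.2, with 23608 and 26045 peaks, were high, and 1.1 and 2.1, with 10563 and 7469, were low. At least 2 of 4 EpiLC lists held 96 regions (28.2%), against a background of 75%. The Rd2_ES lists, which are short, overlapped 0 and 1.

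As a partial adjustment for list length, the percent of AFX-only regions overlapped was divided by the percent of shared regions overlapped. This relative hold was 29.8% and 27.6% in Rd2_AFX and 28.5%, 47.4%, 23.3% and 49.1% in EpiLC, so the Rd2_AFX values lay inside the EpiLC range. The means were 28.7% ± 1.55 (SD, n = 2) and 37.1% ± 13.1 (SD, n = 4), a difference of −8.43 percentage points for Rd2_AFX minus EpiLC (two-sided exact permutation p = 0.4 over 15 assignments). The smallest p this design allows is 0.067, so it cannot pass 0.05. The labels do not say whether EpiLC libraries 1.1 and 1.2, or 2.1 and 2.2, share a culture or sort. Averaged by the first part of their number, to 2 against 2, they gave the same difference with an exact permutation p of 0.333, the smallest such a design allows. At an equal list length of 7469 peaks, the Rd2_AFX lists overlapped 23 and 20 regions and the EpiLC lists 24, 19, 20 and 24. Relative hold at this length was 17.8% and 15.99% against 27.0%, 19.0%, 23.3% and 26.5%, a difference of −7.05 points (exact permutation p = 0.133). Both Rd2_AFX values then lay below every EpiLC value. The percent of AFX-only regions was alike, 6.76% and 5.88% in Rd2_AFX against 5.59% to 7.06% in EpiLC. Shared regions differed, with 37.9% and 36.8% overlapped in Rd2_AFX against 25.2% to 29.4% in EpiLC, so the separation lay in the divisor. Restricted to regions of AFX rank under 50, an alternative added after the data were seen, the difference turned to 2.08 points (exact permutation p = 0.867). In EpiSC_AF relative hold was 26.4%, 41.3% and 50.5%. It thus still rose with list length in AF, and in EpiLC it went from 23.3% at 7469 peaks to 49.1% at 26045. EpiLC library 1.1, with 10563 peaks and 28.5%, was nearest in length to the Rd2_AFX lists of 11252 and 10719. Beyond the reading at equal list length, the part of list length in the −8.43 points was not tested.

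**Figure D3:**
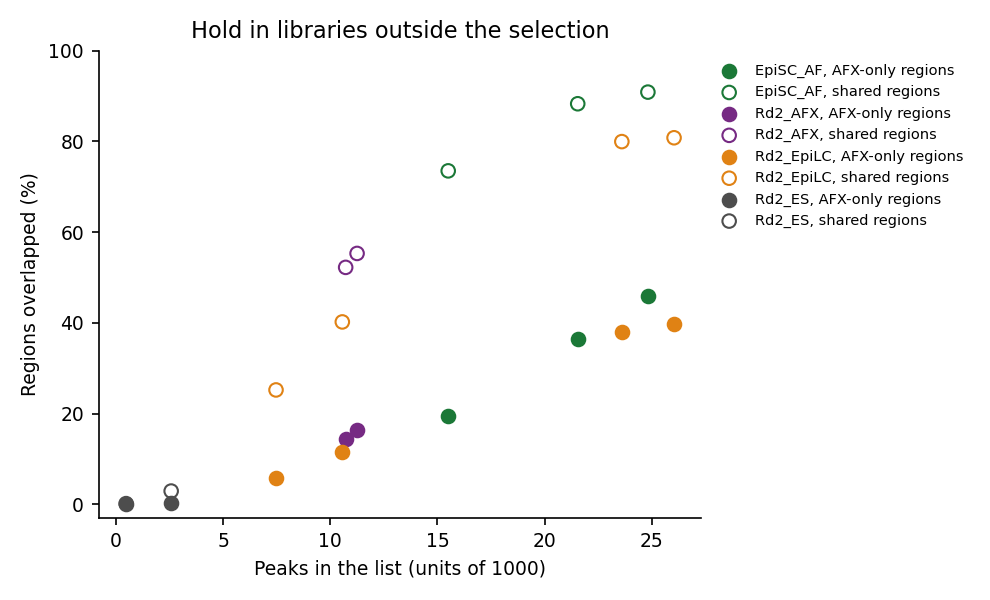
Percent of AFX-only regions (filled) and shared regions (open) overlapped by each library outside the selection (vertical axis) against the number of peaks in its list (horizontal axis, in units of 1000), coloured by group. Filled points lie below the open points of the same library in each library, though both are near 0 in the shortest Rd2_ES list, and the 2 Rd2_AFX points (16.5% and 14.4%) stand near the EpiLC list of similar length (11.5%).

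Where a peak recurred, it was often weak. The median rank of AFX-only regions in the lists that had them was 29.1, 30.9 and 35.7 in the AF libraries and 22.9 and 23.0 in Rd2_AFX, against 50.3, 58.6 and 64.4 and 48.9 and 47.8 for shared regions. In EpiLC it was 41.3, 42.1, 26.5 and 41.5, against 42.01, 58.3, 40.7 and 58.1. Library 1.1 was the one of these 9 lists in which the medians were nearly level. Peaks were in EpiLC and not Rd2_AFX lists at 116 regions, in Rd2_AFX and not EpiLC lists at 27, in both at 63 and in neither at 134. Of the 16848 other regions held by both AFX lines, these counts were 3777, 378, 10752 and 1941, and of the 2960 shared regions 683, 101, 1935 and 241. EpiLC has 4 lists and Rd2_AFX 2, so these counts are not on equal footing. Of the 98 regions held in AF, 25.5% had a peak in an Rd2_AFX list and 43.9% in at least 2 EpiLC lists. Of the other 242, the values were 26.9% and 21.9%. Among the other regions held by both AFX lines, the values were 71.0% and 80.0% where AF held the region and 36.1% and 44.4% where it did not. Among shared regions they were 70.7% and 78.9% against 53.7% and 57.3%. No AF, Rd2_AFX or EpiLC list had a peak at 54 regions (15.9%), against a background of 1.34%.

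A further reading chose regions on 1 line of each type and looked at the other line, whose lists had then taken no part. Regions held by AFX1 without FS1 or ES numbered 1193. AFX2 lists overlapped 37.2% ± 6.404 of them (SD, n = 3) and FS2 lists 7.96% ± 1.65 (SD, n = 3). Of 7789 regions held by AFX2 without FS2 or ES, AFX1 lists overlapped 37.8% ± 13.8 (SD, n = 3) and FS1 lists 46.6% ± 8.53 (SD, n = 3), so the order was turned. Of 4439 held by AFX1 without FS2 or ES, AFX2 overlapped 63.0% ± 6.01 and FS1 54.4% ± 7.80 (SD, n = 3 for both). Of 2540 held by AFX2 without FS1 or ES, AFX1 overlapped 20.4% ± 10.3 and FS2 2.95% ± 0.748 (SD, n = 3 for both). The gap in favour of AFX was wide where the short FS2 lists were read. With lists of equal length it was 0.419 points for the first choice, 0.766 for the second, 8.23 for the third and 1.98 for the fourth. No test was made, since 3 against 3 libraries cannot go below 0.1.

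By position, AFX-only regions lay mostly away from promoters. Within 1 kb of a RefSeq start site were 38 of 340 (11.2%, Wilson 95% interval 8.25% to 14.97% for counting error alone), against 44.7% of shared regions, 50.2% of other regions held by both AFX lines and a background of 18.2% of all union regions. Another 126 (37.1%) lay elsewhere in the span of a protein-coding gene, and 176 (51.8%) lay between genes, against 21.5% of shared regions and 45.8% of union regions. Of the 340, 45 (13.2%) were over 100 kb and 13 (3.82%) over 500 kb from the nearest gene, against 2.40% and 0.203% of shared regions and 12.7% and 2.81% of union regions. The start-site table lacks some genes and has none for the 11 regions on chromosome 18. Exons and introns could not be told apart, because genes were read as whole spans. Hold in at least 2 AF lists was 28.9% at start sites, 27.0% in gene spans and 30.1% between genes, and the median rank was 29.1, 32.1 and 35.3.

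**Figure D4:**
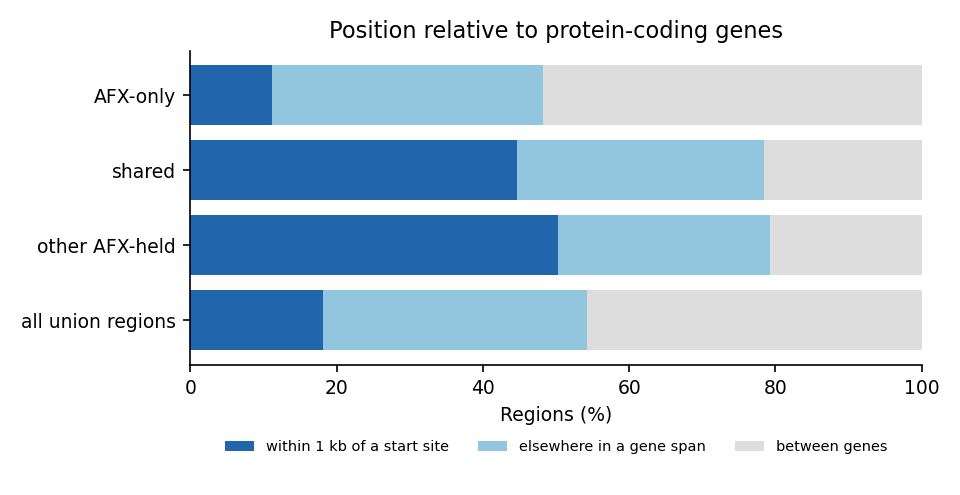
Percent of regions (horizontal axis) within 1 kb of a start site, elsewhere in a protein-coding gene span and between genes, for AFX-only regions, shared regions, other regions held by both AFX lines and all union regions. Between genes lie 51.8% of AFX-only regions, 21.5% of shared regions and 45.8% of all union regions.

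The regions were spread over all autosomes and the X chromosome. Chromosome 2 held 34, chromosome 3 held 31 and chromosome 4 held 29. As a share of all regions held by both AFX lines, they were most frequent on chromosome 3, with 3.56%, and chromosome 16, with 3.51%, and least frequent among autosomes on chromosome 17, with 0.986%, and chromosome 15, with 1.03%. The nearest genes numbered 333, and none had more than 2 regions. Those with 2 included Slco1b2, Ptbp2, Spopfm2, Kif2b, Gdi2 and Dscam.

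The regions of highest rank among the 38 found in all 6 AFX lists differed in how they recurred. The first lay between genes at chr16:76539742-76540118, 166 kb from Nrip1, a nuclear receptor corepressor gene. Its ranks were 91.9, 51.5 and 89.4 in AFX1 and 85.8, 87.9 and 78.2 in AFX2, with fold enrichments of 7.34, 4.61 and 7.16 and of 7.53, 7.31 and 5.98. Its ranks in AF were 81.7, 74.2 and 66.6, those in EpiLC 1.2 and 2.2 were 78.9 and 69.1, and neither Rd2_AFX list had a peak. The region thus ranked above 50 in all 9 EpiSC lists of the first set and unlisted in the EpiSCs of the other set.

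A region in the span of Efcab1, at chr16:14906337-14906738, ranked 68.8, 54.8 and 83.7 in AFX1 and 53.3, 72.8 and 62.5 in AFX2. No AF list had it, while Rd2_AFX library 2, at 86.5, and EpiLC 2.2, at 81.0, did. A region in Rims1, which encodes a protein of the presynaptic active zone, at chr1:22293984-22294603, went the other way. It ranked 78.4, 26.9 and 61.1 in AFX1 and 53.4, 68.8 and 59.1 in AFX2, was in all 3 AF lists at 29.9, 14.3 and 17.4, and was in no Rd2_AFX or EpiLC list. At chr3:114904091-114904461, a region in Olfm3, an olfactomedin gene, began near the start site. It ranked 61.1, 44.9 and 63.8 in AFX1 and 29.3, 77.8 and 60.8 in AFX2, and was in 2 AF, 0 Rd2_AFX and 2 EpiLC lists.

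Further regions of this kind lay near Slc25a46, Dpp6, Ccnh, Aplnr and Tiam2. The region 10.95 kb from Slc25a46, a mitochondrial outer membrane protein gene, had a mean rank of 60.7 and was in 2 AF, 2 Rd2_AFX and 4 EpiLC lists outside the AFX lines. The region 42.3 kb from Ccnh, the cyclin of the CDK-activating kinase, was in 3 AF, 1 Rd2_AFX and 4 EpiLC lists, with a mean rank of 54.9, and these were the most widely listed of the 9. The region 113 kb from Dpp6, a potassium channel subunit gene, ranked from 4.65 in AFX1 library 1 to 87.0 in AFX1 library 2, the widest spread of the 9 described. Aplnr, the apelin receptor gene with a role in mesendoderm migration, had a region 4.55 kb away at chr2:85130878-85131808 that was in 1 AF and no Rd2 list, with a mean rank of 51.8. The region 51.0 kb from Tiam2, a Rac exchange factor gene, was also in 1 AF and no Rd2 list, with a mean rank of 51.5. No AFX-only region was in all 6 AFX, all 3 AF and both Rd2_AFX lists while missing from every EpiLC list.

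Among regions listed in no AF, Rd2_AFX or EpiLC library, the highest mean rank was 51.5, in Cdh22, a cadherin gene, at chr2:165184002-165184272. Its ranks were 53.8 and 28.5 in AFX1 libraries 2 and 3 and 76.5, 51.5 and 47.3 in AFX2. The next were 264 kb from Tet2, a methylcytosine dioxygenase gene, with a mean rank of 47.9, and in the span of Kcnk3, a potassium channel gene, with 47.7. Slc10a7, Tdpoz4, Serpina12, Adamtsl1 and Mex3a followed with mean ranks from 45.0 down to 41.6. Mex3a, an RNA-binding protein gene, was the one of these 8 in all 6 AFX lists, with ranks from 9.52 to 69.0.

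At start sites, the highest mean ranks after Olfm3 were 52.2 at Cnih2, 51.4 at Gpr1 and Zdbf2, 46.9 at Kctd8, 46.3 at Bscl2 and Gng3, 44.4 at Nudt17, 43.5 at Prxl2a and 42.9 at Epha3. Kctd8, whose bases are printed above, ranked 13.1 and 34.4 in AFX1 libraries 1 and 3 and 58.1, 73.2 and 55.8 in AFX2, and was in 1 AF, both Rd2_AFX and all 4 EpiLC lists. Cnih2 ranked 41.8 and 55.7 in AFX1 libraries 2 and 3 and 65.0 and 46.3 in AFX2 libraries 2 and 3. It was in 2 AF lists and in no Rd2 list. Tfap2a had a mean rank of 35.3 and was in 2 AF and no Rd2_AFX or EpiLC lists. Fgf10, with 30.0, was in 2 AF and 2 EpiLC lists, and Ptf1a, with 21.2, was in no AF and 2 EpiLC lists. Hoxb4, a homeobox gene of the posterior axis, had a region over its start with a mean rank of 30.1 that no list outside the AFX lines had. Hoxb4 was named outside the fixed rules given below, and this absence was not particular to it. Promoter regions at Nrk, Il3ra, Lsm7 and Sppl2b, among others, were likewise in no AF, Rd2_AFX or EpiLC list.

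Genes of the pathways that govern these states were read from 9 lists, counting a gene when an AFX-only region lay in its span or within 20 kb. Of the 145 listed genes, 10 had one (6.90%), against a background of 1.67% of all protein-coding genes. Shared regions lay at 49 of the 145 (33.8%), against 20.4% of all protein-coding genes. None of 13 naive, 11 formative or 19 retinoic acid genes had an AFX-only region, while shared regions were at 2, 5 and 7 of them. The lists were made with results of these data known, so the counts support nothing about the pathways.

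Of 20 primed and mesendoderm genes, Lefty1, Wnt3 and Cdx2 had one. Lefty1, a secreted inhibitor of Nodal that also stands in the list of 18 Nodal and activin genes, had a region with a mean rank of 52.6, at chr1:180933743-180935038 in its span. It ranked 70.5 and 26.9 in AFX1 libraries 2 and 3 and 55.5, 64.1 and 46.1 in AFX2, and was in 2 AF, 1 Rd2_AFX and 3 EpiLC lists. Wnt3, a ligand required to start gastrulation, had a region in its span at chr11:103809822-103810528, and was the one of 23 Wnt genes with any. It ranked 9.5, 9.3 and 22.2 in AFX1 and 41.6 and 55.5 in AFX2 libraries 2 and 3, was in AF libraries 2 and 3 at 47.8 and 73.5, and was in no Rd2 list. Cdx2, a factor of trophoblast and posterior identity, had a region in its span at chr5:147304905-147305209, with ranks from 22.5 to 38.2 in 5 AFX lists and no peak in AF, Rd2_AFX or EpiLC.

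FGF and ERK genes gave 2 of 18, both of low rank. The region in the span of Fgfr1, an FGF receptor, at chr8:25536497-25537704, ranked 5.7 and 9.7 in AFX1 and 4.8 and 4.2 in AFX2, the second lowest mean rank of all 340. The region 2.26 kb from Dusp4, a phosphatase acting on ERK, at chr8:34804976-34805347, had a mean rank of 16.8. Neural genes gave 2 of 16. Pax6, a regulator of eye and forebrain, had a region in its span at chr2:105687520-105688683 with a mean rank of 21.7 and no peak in AF, Rd2_AFX or EpiLC lists. Zic1, a neural zinc finger gene, had a region 6.79 kb away at chr9:91350925-91351265 and another in the span of its neighbour Zic4 at chr9:91384270-91384476, with mean ranks of 29.2 and 32.9. Adhesion and matrix genes gave 2 of 21. One region, in the span of Bicdl2 beside Cldn6 (an epithelial tight junction gene) at chr17:23664572-23665038, had a mean rank of 34.6 and was in 3 EpiLC lists. The other, in Col11a1, a fibrillar collagen gene, at chr3:114031855-114032098, had a mean rank of 38.5 and was in 1 AF list.

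**Figure D5:**
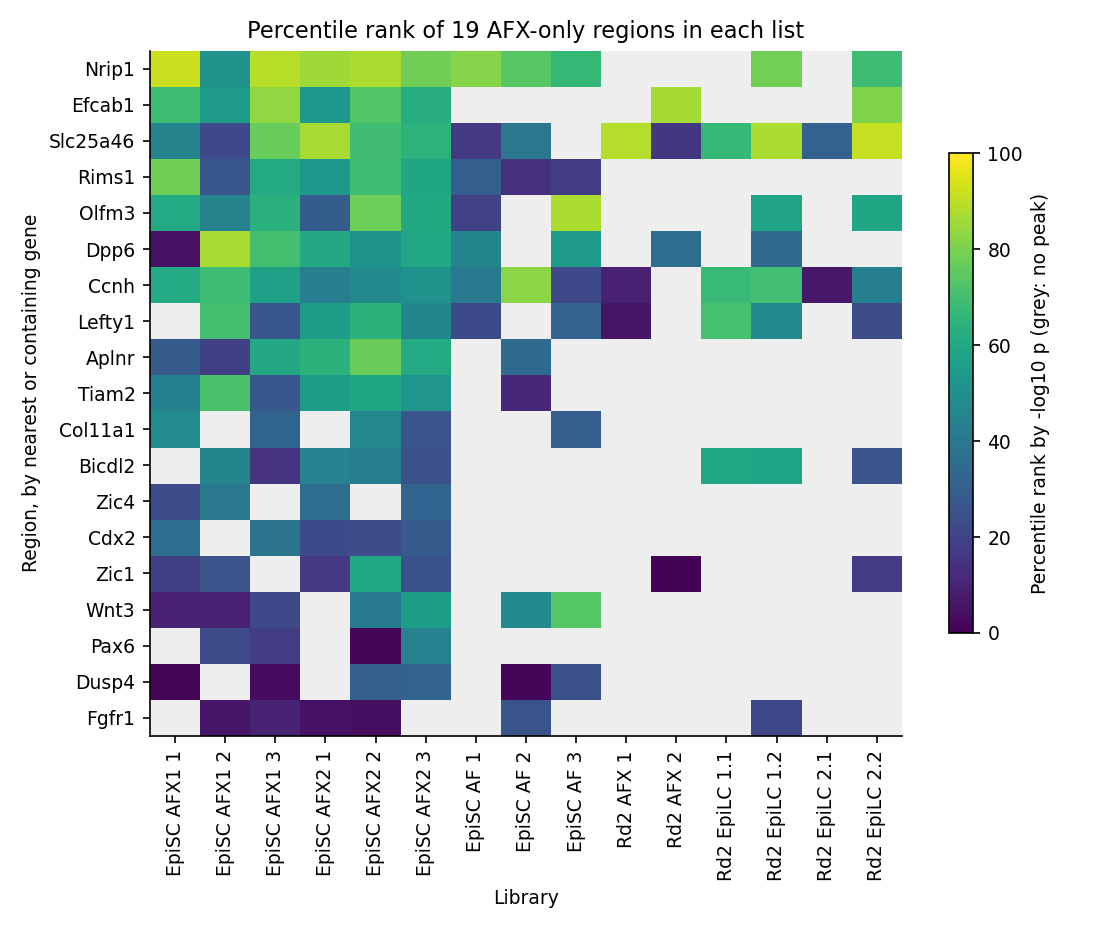
Percentile rank by −log10 p (colour, 0 to 100, grey where no peak was listed) of 19 AFX-only regions, from those of highest rank in all 6 AFX lists and those at listed genes (rows, by gene), in each AFX, AF, Rd2_AFX and EpiLC library (columns). Nrip1 is filled in every AFX and AF column, whereas Cdx2 and Pax6 are grey outside the AFX columns.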

How the data were processed

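The data were 26 broadPeak lists of mouse ATAC-seq, 1 for each library. Per the submitters' processing notes, Trim Galore, Bowtie, Picard and MACS2 were used with the mm10 build; their order, versions and settings are not given in the sources used here. In the deposited lists each peak carries the authors' fold enrichment, a ratio whose reference is not stated, and the authors' −log10 p and −log10 q, the lowest −log10 q being 1.00. No read counts were used, so depth is unknown and precision rests on the number of libraries.

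Overlapping or touching peaks were merged, and a list had a region when its peaks touched it by at least 1 bp. Ranks were percentiles of −log10 p within a list. Genes came from RefSeq tables of GRCm38.p6. The members, lists and tests were chosen with earlier results of these data known. Most regions were named by fixed rules: the 10 highest ranks in all 6 AFX lists, up to 8 listed nowhere else, up to 8 within 1 kb of a start, genes with most regions, listed genes, and 4 near misses. Those at Tfap2a, Fgf10, Ptf1a and Hoxb4 were named outside these rules. Relative hold was compared by a two-sided exact permutation test over libraries (Python 3.11.15, pandas 2.3.3, numpy 2.4.6, scipy 1.17.1). The method was tested on simulated lists. Alternatives covered list length, a −log10 q of at least 5, other presence criteria, 50% coverage and left-out libraries. Identical coordinates made up at most 0.0746% of peaks in any pair of same-group libraries. Motif windows at region centres were not analysed here, and some named regions are not reported here.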

Additional observations from a re-analysis of the deposited data

How the results depend on the processing

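The number of AFX-only regions depended on the processing: it was 96 from −log10 q 5 upward, 42 with 8044 peaks from each list, 38 with 3 of 3 AFX lists and 1953 with at least 1 of 3. Leaving out 1 library gave 97 (without AFX1 library 3) to 642 (without FS1 library 3). Without AFX1 library 1 or 2 or AFX2 library 2 it was 225, 158 and 190. With an AFX library left out, both remaining lists of its line were required, which is a stricter criterion. The number of AFX-only regions under the other settings follows. It stayed within 1.5 times of 340 when Rd2_ES counted as ES (339), with 50% coverage (297), with no FS or ES peak within 500 bp (333) and without any other library. The percent held in EpiSC_AF was 10.3 with all 3 AF lists, 62.6 with at least 1, 13.5 with 50% of the region covered and 2.06 with −log10 q of at least 5. It was 52.6 for regions in 3 of 3 AFX lists. With 1 AF library left out and both remaining lists required, it was 13.2 to 21.8. For ranks under 50, added after the data were seen, it was 25.3. Relative hold in Rd2_AFX minus EpiLC was −15.8 (50% coverage, exact permutation p = 0.067) to −2.01 points over the other settings on all 6 libraries, −13.0 to −4.42 with 1 library left out, and turned to 2.08 (exact permutation p = 0.867) for ranks under 50. The percent within 1 kb of a start was 2.63 for regions in 3 of 3 AFX lists, 36.5 with −log10 q of at least 5, and 17.1 for either gene end, added after the data were seen. For regions chosen on AFX1 without FS1, AFX2 minus FS2 was 22.2 points with 50% coverage and 0.419 at equal list length. At equal length it was also 1.98 for AFX2 without FS1, and turned to 0.766 for AFX2 without FS2. The cause of these shifts was not tested. No paired analysis was possible because the Rd2_AFX and EpiLC libraries share no replicate numbers.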
